A study of Mus musculus with 32 samples.

Results

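The genes described here are 10 of the 32544 rows of a bulk RNA-Seq count table from mouse kidney cortex. They encode enzymes of serine synthesis and mitochondrial folate metabolism (*Psat1*, *Phgdh*, *Psph*, *Shmt2*, *Mthfd2*), asparagine synthetase (*Asns*), the transcription factor ATF4 (*Atf4*) and stress genes that act with or below it (*Ddit3*, *Trib3*, *Nupr1*). The rows were chosen by gene symbol, and the symbols were selected on pathway knowledge by someone who already had results from these same counts. Which measured values guided that choice is not recorded, so the values and counts of these genes are given as a description and not as independent support for any pattern.

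The 32 mice were Col4a3tm1Dec mice on the C57BL/6J background, sampled at 25 weeks of age, with 4 mice in each of 8 groups. Alport mice were Col4a3-/-, which lack the α3 chain of type IV collagen in the glomerular basement membrane, and control mice were Col4a3+/-, so the controls also carried a disrupted allele. Males and females of both genotypes received vehicle or nicotinamide riboside (NR), a precursor of NAD+, which made up 0.5% (w/w) of the diet from 10 weeks of age. The deletion is present in every cell of these mice, and each library is the cortex of a single mouse.

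Serine is made from the glycolytic intermediate 3-phosphoglycerate by PHGDH, PSAT1 and PSPH in succession, and the mitochondrial enzymes SHMT2 and MTHFD2 then pass its carbon to folate for nucleotide and formate synthesis. In the kidney, the proximal tubule is known as a site of serine synthesis. The integrated stress response joins this pathway to ATF4: kinases that phosphorylate the translation factor eIF2 lower general protein synthesis and favor translation of the *Atf4* mRNA, and ATF4 then activates genes for amino acid synthesis, transport and tRNA charging. ATF4 is therefore controlled in large part at translation, which mRNA counts do not measure.

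On the mouse assembly GRCm38.p6 (the submitters' processing notes name the matching build, mm10), RefSeq places the members as follows. *Psat1* is at chr19:15905123-15925059, *Phgdh* at chr3:98313171-98339969 and *Psph* at chr5:129765558-129787443. *Shmt2* is at chr10:127517123-127522444 and *Mthfd2* at chr6:83305704-83326011. *Asns* is at chr6:7675165-7693209, *Atf4* at chr15:80255184-80257545 and *Ddit3* at chr10:127290793-127296291. *Trib3* is at chr2:152337425-152344060 and *Nupr1* at chr7:126623246-126625470. Exons of *Psph*, *Shmt2* and *Ddit3* overlap exons on the opposite strand (*Cct6a*, *Ndufa4l2*, and *Mars* with *Gm4189*), and since the strand setting of the counting is not given in the sources used here, reads of these partners cannot be told apart. The table also has a row for the pseudogene *Phgdh-ps1*, with which *Phgdh* may share reads.

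ATF4 with a C/EBP partner is known to bind the amino acid response element, whose core was searched here as TGATGNAA on either strand (TTNCATCA on the other) in windows of 300 bases, from 250 before to 50 after a start site, of which the RefSeq table used here holds 1 or 2 per member and not every annotated start. For *Psph* and *Mthfd2* the start site used lies inside the gene as placed above. Promoters of 3 of the 10 genes held it, against 1219 of 27025 genes with a promoter in the table (4.51%) and 12 of 27 genes of a list of ATF4 targets (44.4%). The stretches around these matches are shown because these 3 members alone held the core, with the match in capitals, written 5′ to 3′ in the direction of transcription. A match is a description of letters and not a bound site, and its absence says only that these letters are not in the window. The stretch of *Asns* lies at chr6:7693210-7693309, that of *Nupr1* at chr7:126625496-126625595 and that of *Trib3* at chr2:152344028-152344057, all on the minus strand. The match begins 23 bases before the start site in *Asns*, 110 before it in *Nupr1* and 14 after it in *Trib3*, and in *Nupr1* and *Trib3* it reads as TTNCATCA.
Asns: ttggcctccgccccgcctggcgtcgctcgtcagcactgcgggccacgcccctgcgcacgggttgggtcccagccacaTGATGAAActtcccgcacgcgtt
Nupr1: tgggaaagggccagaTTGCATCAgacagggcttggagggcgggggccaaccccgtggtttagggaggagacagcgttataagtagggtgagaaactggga
Trib3: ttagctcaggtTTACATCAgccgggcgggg

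Total counts ranged from 16621944 to 27778797 per library, and every member had at least 14 counts in every mouse, so all 10 passed the low-count filter in each comparison. Levels are CPM, which is the count scaled to the library total after TMM normalization, and tests are quasi-likelihood tests in edgeR with p-values adjusted over all genes tested by the Benjamini-Hochberg method, called at an adjusted p under 0.05. The targeted gene, *Col4a3*, lay at 49.0–83.7 CPM in the 16 Alport mice and at 140 CPM or more in the 8 vehicle-treated control mice, without overlap. In NR-treated female controls it lay at 105–123 CPM. In the libraries labelled NR-treated male control, *Col4a3* was 59.0, 93.7, 74.9 and 160.0 CPM in replicates 1 to 4, so replicates 1 and 3 fell within the range of the Alport mice and are left out in an added alternative below. The counts are per gene, so they do not show which exons the remaining *Col4a3* reads came from. The Y-linked genes *Ddx3y* and *Eif2s3y* separated the sexes as labelled, at 46.0–86.2 CPM in males and 0.344–1.41 CPM in females. The markers of the cortex were present: all 12 proximal tubule markers had counts in every mouse. NR-treated male Alport replicate 3 stands apart in the members and is treated in a section of its own.

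**Figure D1:**
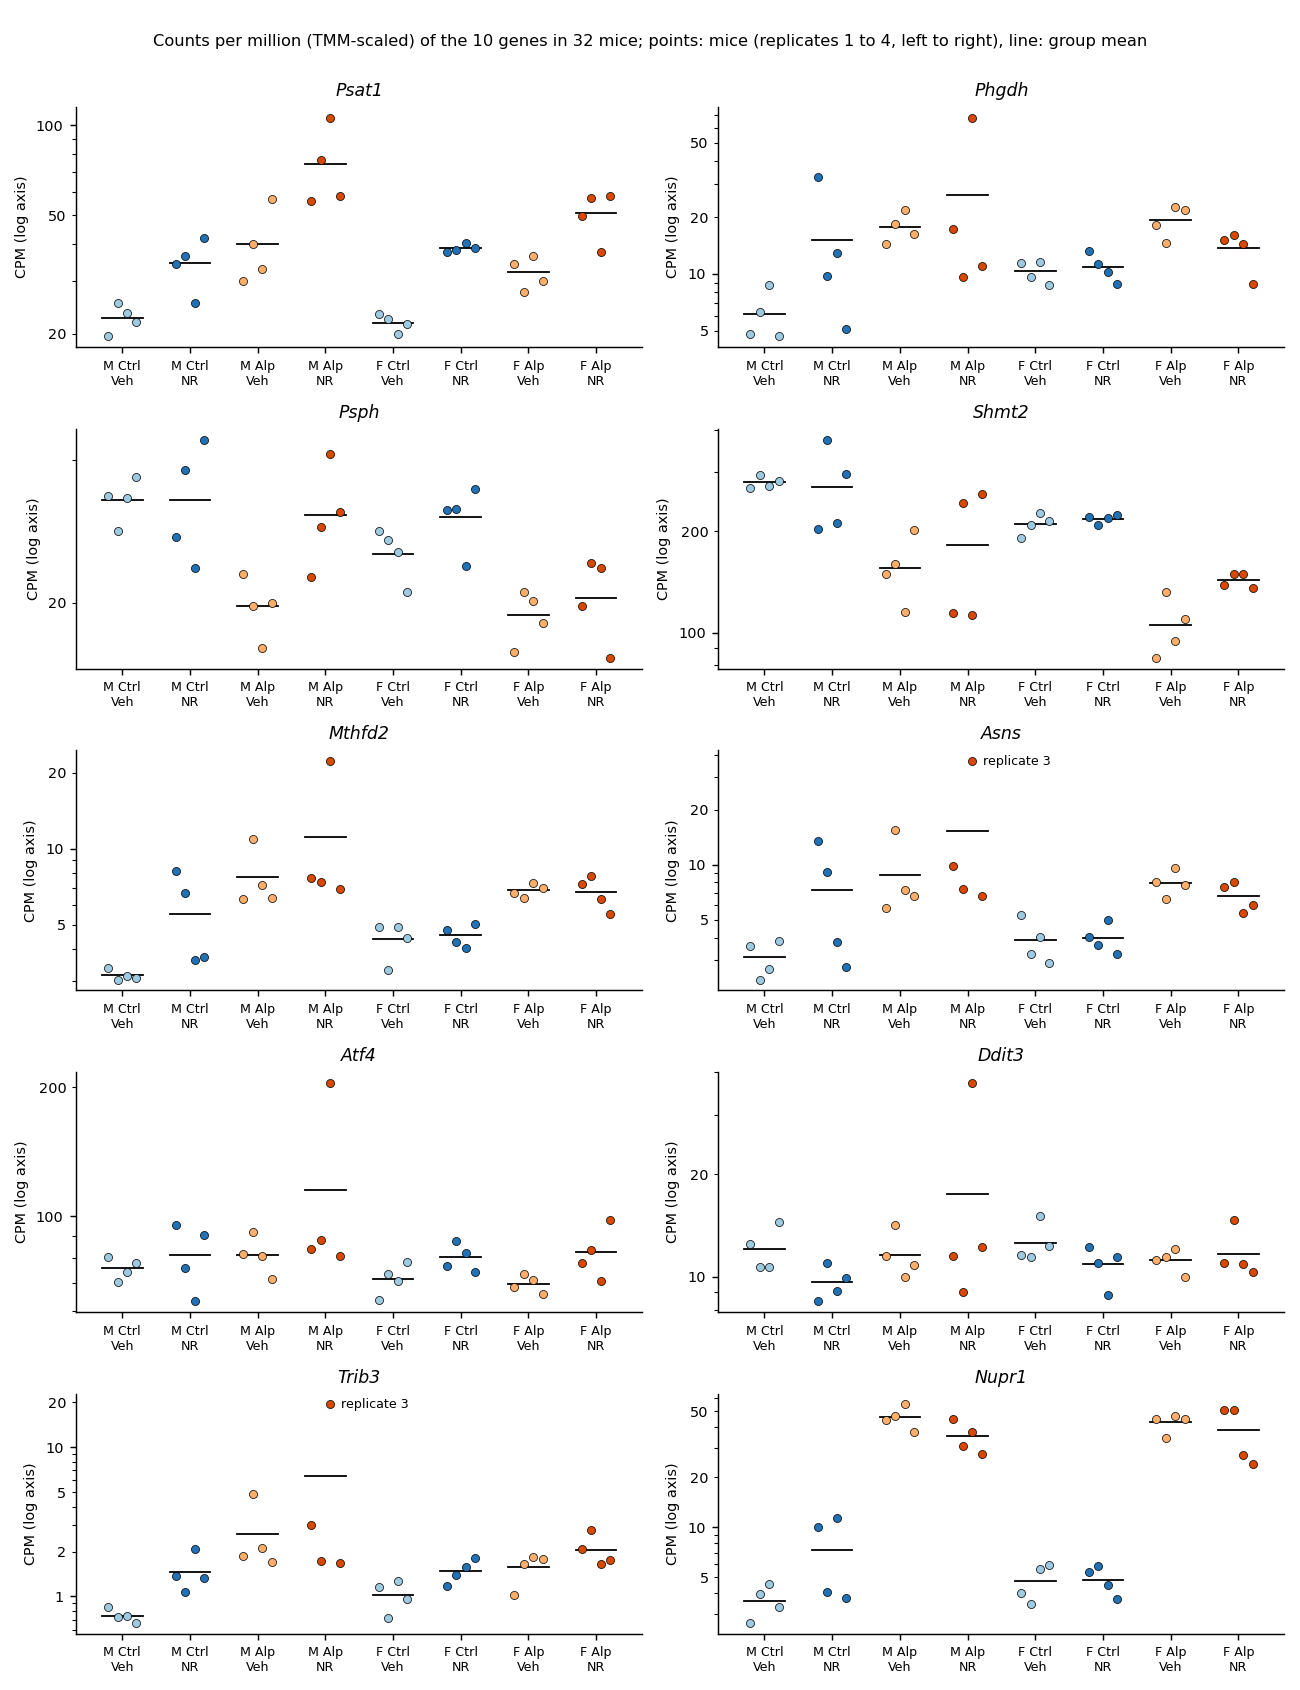
CPM (log axis) of the 10 genes in each of 32 mice by sex (M, F), genotype (Ctrl, Alp) and treatment (Veh, NR); points are mice, replicates 1 to 4 from left to right, and lines are group means of 4 mice. *Nupr1* separates all Alport from all control mice, and NR-treated male Alport replicate 3 is the highest point for 7 genes, at 36.8 CPM for *Asns* and 19.4 CPM for *Trib3*.

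The first comparison asked how the Alport genotype alone changed these genes, in vehicle-treated mice. Among male mice, 6 of 10 members were upregulated with the Alport genotype and 2 were downregulated. Among female mice, 5 members were upregulated and 1 was downregulated. The Alport genotype was accompanied by calls across the transcriptome: of 15286 genes tested in males, 51% were called, with 26.8% higher and 24.2% lower in Alport mice. Of 15709 genes tested in females, 45.8% were called, with 24% higher and 21.8% lower. The members had a median log2 fold change (log2FC) of 1.14 among males and of 0.63 among females, against −0.001 over all genes tested in either sex. Within serine synthesis the direction was split, since *Psat1* and *Phgdh* rose and *Psph* and *Shmt2* did not.

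*Phgdh*, the first and committed enzyme of the pathway, was 4.77, 6.25, 8.70 and 4.66 CPM in vehicle-treated male controls and 14.4, 18.4, 21.8 and 16.3 CPM in vehicle-treated male Alport mice. Female controls had 11.5, 9.67, 11.6 and 8.70 CPM and female Alport mice 18.3, 14.6, 22.7 and 21.9 CPM. The genotypes did not overlap in either sex, and the highest male control and the lowest female control were both at 8.70 CPM. The log2FC was 1.62 ± 0.20 (SE, n = 4 per group) in males (edgeR adjusted p = 4.17e-05) and 0.94 ± 0.15 in females (adjusted p = 0.00066).

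*Psat1*, the aminotransferase of the second step, was 19.6, 25.3, 23.5 and 21.9 CPM in vehicle-treated male controls and 30.1, 39.9, 33.1 and 56.8 CPM in male Alport mice. Among females, *Psat1* was 23.2, 22.4, 19.9 and 21.5 CPM in controls and 34.2, 27.7, 36.6 and 30.1 CPM in Alport mice. Alport mice were above controls without overlap in both sexes. The log2FC was 0.90 ± 0.17 in males (edgeR adjusted p = 0.000949) and 0.60 ± 0.09 in females (adjusted p = 0.000429).

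*Psph*, the phosphatase that completes serine synthesis, went the other way. Levels were 24.5–28.6 CPM in vehicle-treated male controls and 17.6–21.7 CPM in male Alport mice, a log2FC of −0.36 ± 0.09 (edgeR adjusted p = 0.005). Female controls lay at 20.6–24.5 CPM and female Alport mice at 17.4–20.6 CPM. All 4 female Alport mice lay below the controls, though the nearest values are equal as rounded. The log2FC of *Psph* in females, −0.22 ± 0.08, did not pass the test (adjusted p = 0.0519). It passed with DESeq2 (0.0439), with RLE size factors (0.0477), without control replicate 4 (0.0272) and without Alport replicate 2 (0.0317), and its adjusted p ran from 0.0272 to 0.136 over 13 alternatives.

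*Shmt2*, which takes the serine carbon into mitochondrial folate, was 269, 293, 273 and 282 CPM in vehicle-treated male controls and 149, 160.0, 115 and 201 CPM in male Alport mice. In females it was 191, 208, 227 and 215 CPM in controls and 84.1, 132, 94.5 and 110.0 CPM in Alport mice. *Shmt2* fell without overlap in both sexes, by 0.76 on the log2 scale in males (SE 0.14, edgeR adjusted p = 0.000618) and by 0.96 in females (SE 0.13, adjusted p = 0.000269).

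*Mthfd2*, the next mitochondrial folate enzyme and one that most adult tissues express at a low level, moved opposite to *Shmt2*. It was 3.39, 3.04, 3.15 and 3.09 CPM in vehicle-treated male controls and 6.33, 10.9, 7.22 and 6.39 CPM in male Alport mice. Among females, *Mthfd2* was 4.90, 3.31, 4.91 and 4.42 CPM in controls and 6.70, 6.38, 7.32 and 6.98 CPM in Alport mice. No Alport mouse overlapped the controls of its sex, and the log2FC was 1.37 ± 0.20 in males (edgeR adjusted p = 0.000127) and 0.68 ± 0.15 in females (adjusted p = 0.00375).

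*Asns*, which makes asparagine from aspartate and glutamine, was 3.60, 2.36, 2.70 and 3.81 CPM in vehicle-treated male controls and 5.84, 15.4, 7.30 and 6.74 CPM in male Alport mice. In females it was 5.33, 3.24, 4.04 and 2.92 CPM in controls and 8.01, 6.53, 9.62 and 7.72 CPM in Alport mice. The groups did not overlap, and male Alport replicate 2 stood above the other 3. The log2FC was 1.58 ± 0.30 in males (edgeR adjusted p = 0.00104) and 1.08 ± 0.20 in females (adjusted p = 0.00134).

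*Atf4* itself was not called in either sex. It was 70.4–80.4 CPM in vehicle-treated male controls and 71.5–91.7 CPM in male Alport mice (log2FC 0.18 ± 0.09, edgeR adjusted p = 0.0911), and 63.9–78.1 CPM against 65.8–73.5 CPM in females (log2FC −0.0002 ± 0.07, adjusted p = 0.999). *Ddit3*, which encodes the proapoptotic factor CHOP, was likewise not called, at 10.7–14.5 CPM against 10–14.2 CPM in males (log2FC 0.02 ± 0.14, adjusted p = 0.9) and 11.4–15.1 CPM against 10–12.1 CPM in females (log2FC −0.13 ± 0.12, adjusted p = 0.384). Without vehicle-treated male Alport replicate 4, *Atf4* passed in males (log2FC 0.24, adjusted p = 0.0242, with 0.0242 to 0.702 over 13 alternatives).

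*Trib3*, a pseudokinase induced by ATF4 and CHOP, was 0.848, 0.728, 0.738 and 0.666 CPM in vehicle-treated male controls, which is 14–17 counts, and 1.87, 4.88, 2.10 and 1.71 CPM in male Alport mice. Its log2FC in males was 1.90 ± 0.37 (edgeR adjusted p = 0.00115). In females it was 1.16, 0.715, 1.26 and 0.956 CPM in controls and 1.03, 1.66, 1.85 and 1.79 CPM in Alport mice, where replicate 1 lay among the controls. The female log2FC of 0.66 ± 0.28 did not pass (adjusted p = 0.0764), and without that mouse it was 0.83 and passed (adjusted p = 0.0347, with 0.0347 to 0.387 over 13 alternatives).

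*Nupr1*, a small chromatin-associated stress protein, had the largest change of the 10 genes in both sexes. It was 2.65, 3.94, 4.57 and 3.28 CPM in vehicle-treated male controls and 44.6, 46.6, 55.0 and 37.4 CPM in male Alport mice. Female levels of *Nupr1* were 4.00, 3.42, 5.61 and 5.92 CPM in controls and 45.1, 34.3, 46.8 and 44.9 CPM in Alport mice. The fold change was 13.4 in males (log2FC 3.74 ± 0.17, edgeR adjusted p = 2.12e-08) and 9.28 in females (log2FC 3.21 ± 0.17, adjusted p = 6.43e-06).

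In males, each of the 8 calls held under all 13 alternatives run for this comparison. In females, 1 fit of all 32 mice left only *Psat1*, *Shmt2* and *Nupr1* called, with an adjusted p of 0.12 for *Phgdh*, 0.0795 for *Mthfd2* and 0.0687 for *Asns*. Over the 13 alternatives in females, the adjusted p ran from 1.46e-07 to 0.12 for *Phgdh*, 0.000133 to 0.0795 for *Mthfd2* and 1.96e-06 to 0.0687 for *Asns*.

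**Figure D2:**
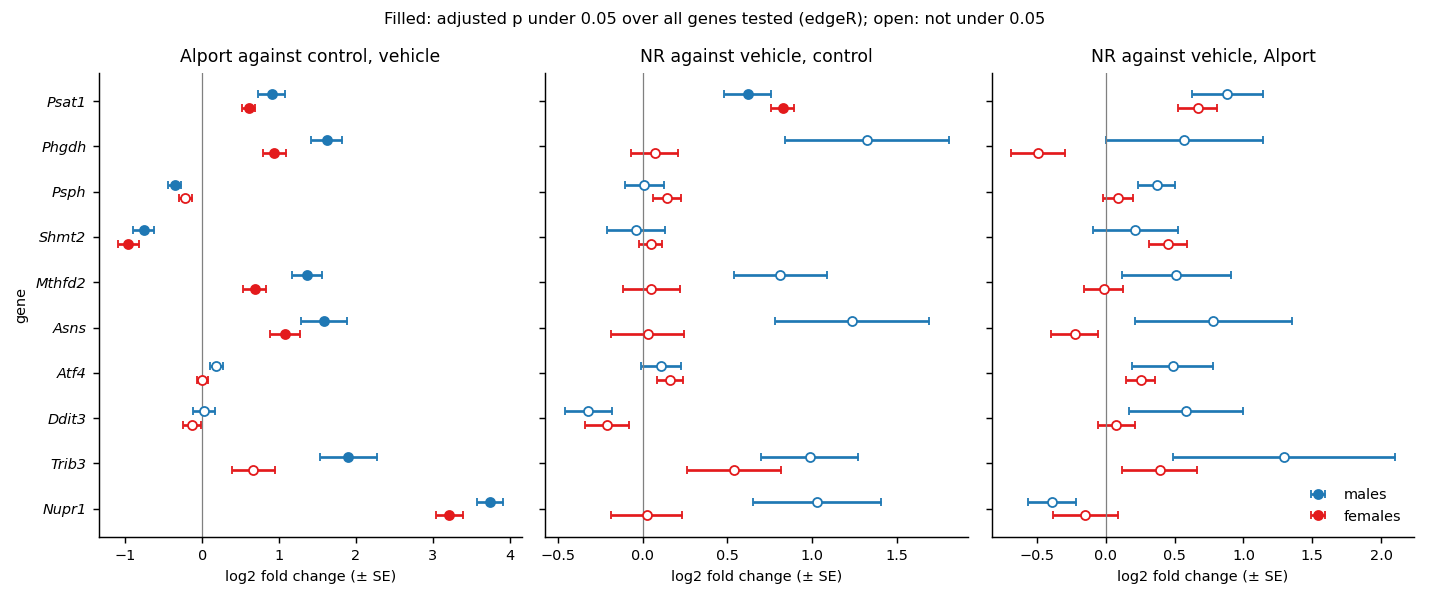
log2FC ± SE of the 10 genes in males (blue) and females (red) for Alport against control mice on vehicle, and for NR against vehicle in control and in Alport mice (n = 4 mice per group); filled points have an adjusted p under 0.05 over all genes tested. *Nupr1* is farthest to the right under the Alport genotype, at 3.74 in males and 3.21 in females, and *Psat1* has the only filled points under NR.

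The wider pathways were read from lists written by hand from general knowledge, with earlier results of these data known. Their counts are therefore a description too. Over all genes tested, 26.8% were called higher and 24.2% lower in male Alport mice, and 24% higher and 21.8% lower in females. Of 23 tested genes that surround the members in serine, glycine and folate metabolism, 3 rose and 15 fell in male Alport mice, and 2 rose and 14 fell in females. The list's median log2FC was −0.72 among males and −0.53 among females. In males, those that fell with the smallest adjusted p included *Gnmt*, which methylates glycine (log2FC −1.45), and *Dmgdh* of mitochondrial choline breakdown (−1.28). Those that rose were the glutamine transporter *Slc1a5* (0.44), the mitochondrial formate-producing enzyme *Mthfd1l* (0.85) and the mitochondrial folate dehydrogenase *Aldh1l2* (0.81). In females, those that fell included the cytosolic folate enzyme *Mthfd1* (−0.96) and the serine racemase *Srr* (−0.68), and *Mthfd1l* (1.02) was among those that rose. The members that rose thus stood beside a list in which most called genes fell.

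Of 31 tested ATF4 targets outside the members, 11 rose and 2 fell in male Alport mice, and 9 rose and 3 fell in females, with medians of 0.15 and 0.14 against −0.001 over all genes. Beside these counts, 51% of all genes tested were called in males (26.8% higher) and 45.8% in females (24% higher). In males the largest evidence was for the secreted glycoprotein gene *Stc2* (log2FC 2.81), the proline synthesis gene *Aldh18a1* (1.85) and the stress transcription factor *Atf3* (3.97), and *Gpt2* (−0.59) and *Vldlr* (−0.65) fell. In females *Stc2* (2.31), *Atf3* (2.66) and the cationic amino acid transporter *Slc7a1* (1.09) rose, and *Vldlr* (−0.74), *Gpt2* (−0.59) and *Slc3a2* (−0.26) fell. The other 18 genes in males and 19 in females did not pass. Of 11 genes for the eIF2 kinases and eIF2 factors, 2 rose and 3 fell in either sex. Of 16 endoplasmic reticulum chaperone and unfolded protein response genes, 3 fell in males with none called upward, and 3 rose and 3 fell in females.

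**Figure D3:**
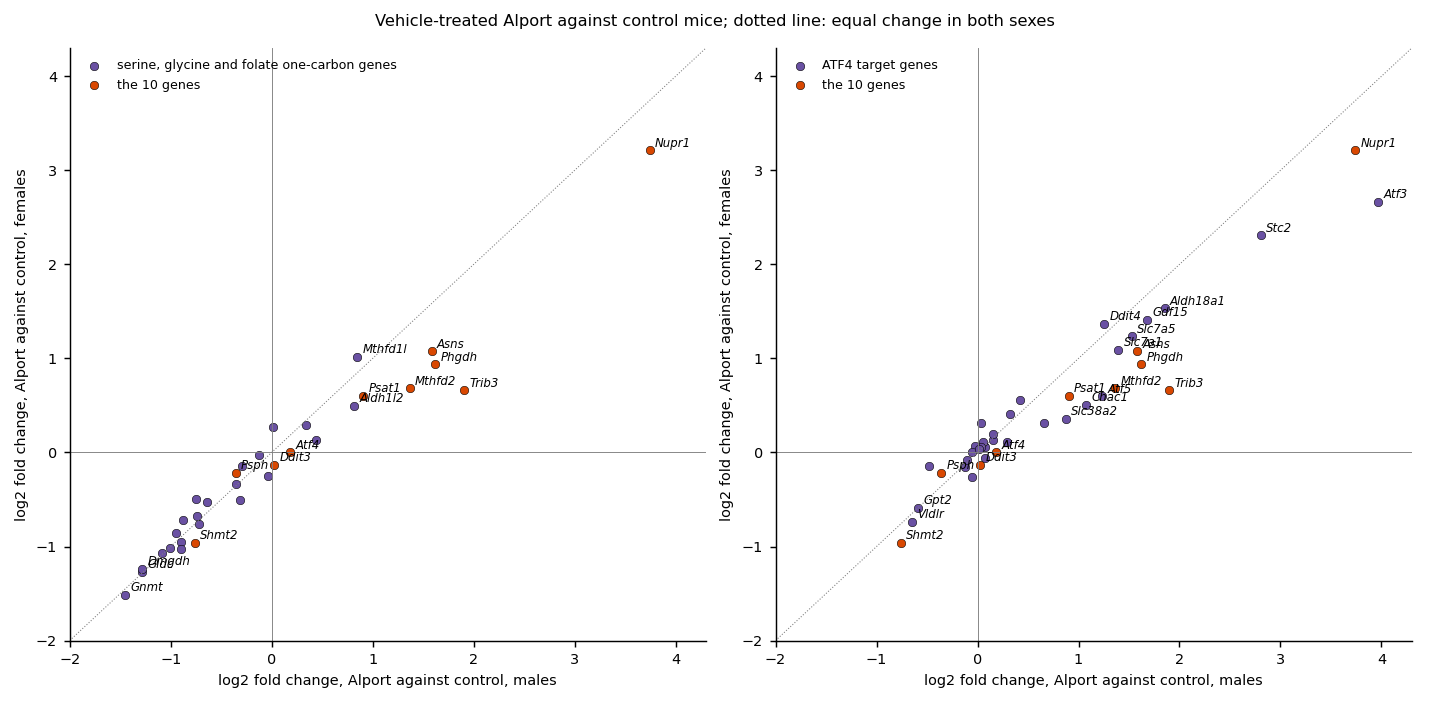
log2FC of vehicle-treated Alport against control mice in males (x axis) and females (y axis) for the 10 genes (orange) with the serine, glycine and folate list (left, purple) or the ATF4 target list (right, purple); each point is a gene and the dotted line marks equal change. Most purple points at left lie below 0 in both sexes, with *Gnmt* lowest at −1.45 and −1.52, and *Atf3*, *Stc2* and *Nupr1* lie farthest up at right.

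Cell type markers moved in the same comparison. In male Alport mice all 12 proximal tubule markers fell, and their summed level was 10200–17400 CPM against 32700–33700 CPM in controls. Each summed level is unweighted, so the markers with the highest CPM dominate it. In females 10 of 12 fell and 1 rose, and the sum was 6810–11400 CPM against 16000–19700 CPM. All 8 injured tubule markers rose in both sexes (sums of 6340–7680 against 663–824 CPM in males and 7510–12000 against 1510–2060 CPM in females), as did all 9 fibroblast markers. Immune cell markers rose for 11 of 11 tested in males and 10 of 11 in females, and proliferation markers for 7 of 8 and 8 of 8. In bulk cortex, fewer cells of a type and less RNA per cell cannot be told apart, and the part of these cell type shifts in the changes of the members was not tested.

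Whether the Alport effect differed between the sexes was tested as a sex-genotype interaction in the 16 vehicle-treated mice, called at an adjusted p under 0.05 with a change of at least 2-fold. No member was called by edgeR or DESeq2, although 4 had an unadjusted p under 0.05, as did 12% of all genes, and 0.285% of 16152 genes were called. The interaction was negative, meaning a log2FC lower in females with its sign kept, for 9 of 10 members, with a median of −0.44 against −0.05 over all genes. This is not a weaker change for each of them. For *Shmt2* (−0.23) the log2FC was −0.96 in females and −0.76 in males, a larger fall in females. The 4 members with an unadjusted p under 0.05 were *Trib3* (−1.27 ± 0.48, adjusted p = 0.277), *Mthfd2* (−0.72 ± 0.24, 0.222), *Phgdh* (−0.72 ± 0.26, 0.262) and *Nupr1* (−0.56 ± 0.25, 0.376). Between vehicle-treated controls of either sex, where 4.34% of genes were called at the same limits, no member reached a 2-fold difference with all mice included. *Phgdh* was higher in females than in males by 0.82 ± 0.19 on the log2 scale (edgeR adjusted p = 0.00473) and *Mthfd2* by 0.52 ± 0.18 (adjusted p = 0.0387). With all mice included, these 2 passed only with no fold limit, where 4629 of the 16152 genes were called. Over 22 alternatives, the adjusted p ran from 0.000747 to 0.273 for *Phgdh* and from 0.0113 to 0.295 for *Mthfd2*. Without male control replicate 3, the difference in *Phgdh* was 1.03 and passed both limits.

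The second comparison asked what NR did in control mice. *Psat1* was the only member called, and it rose in both sexes, against 4.53% of 14696 genes called in males (3.07% up) and 6.18% of 14951 in females (3.91% up). In females *Psat1* was 23.2, 22.4, 19.9 and 21.5 CPM on vehicle and 37.6, 38.2, 40.2 and 38.7 CPM on NR. The groups were far apart, with an SD of 1.41 CPM on vehicle and 1.10 CPM on NR. The log2FC was 0.83 ± 0.07 (edgeR adjusted p = 0.000485), which equals the smallest adjusted p of any gene in that comparison. With all 32 mice in 1 fit the log2FC was 0.84 and did not pass (adjusted p = 0.0661), and it passed under the other 12 alternatives.

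In males *Psat1* was 19.6, 25.3, 23.5 and 21.9 CPM on vehicle and 34.2, 36.6, 25.4 and 41.9 CPM in the libraries labelled NR-treated male control. The lowest NR-treated mouse, at 25.4 CPM, was just above the highest vehicle-treated mouse, at 25.3 CPM. The log2FC was 0.62 ± 0.14 (edgeR adjusted p = 0.0352). The call was lost with the replicate number as a block (0.0686), and without any 1 of vehicle-treated replicates 1 to 4 (0.0639–0.113), NR replicate 1 (0.08) or NR replicate 2 (0.056). Without NR replicates 1 and 3 together, the mice with *Col4a3* in the Alport range, the log2FC was 0.79 and passed (adjusted p = 0.0252).

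The other members were not called in NR-treated controls, and the males were uneven. *Asns* was 2.36–3.81 CPM in vehicle-treated male controls and 13.5, 9.14, 3.78 and 2.75 CPM with NR, so replicates 1 and 2 were high and the other 2 were not. *Phgdh* was 32.7, 9.79, 12.9 and 5.09 CPM with NR against 4.66–8.70 CPM on vehicle. *Mthfd2* was 8.14, 6.69, 3.63 and 3.72 CPM against 3.04–3.39 CPM, without overlap. *Trib3* was 1.38, 1.07, 2.07 and 1.33 CPM against 0.666–0.848 CPM, also without overlap (log2FC 0.99 ± 0.29, edgeR adjusted p = 0.08). *Nupr1* was 10, 4.06, 11.4 and 3.72 CPM against 2.65–4.57 CPM.

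Of the 10 members, 7 had an unadjusted p under 0.05 in male controls, as did 23.1% of all genes tested. DESeq2 called 4 members (*Psat1*, *Mthfd2*, *Asns* and *Nupr1*) and 1654 genes in all. Without NR replicate 4, the edgeR test called 5 members while the count over all genes went from 666 to 1886, with adjusted p-values of 0.0288 for *Phgdh*, 0.0382 for *Mthfd2*, 0.0305 for *Asns* and 0.0363 for *Nupr1* beside *Psat1*. Without NR replicates 1 and 3, the log2FC of *Phgdh* went from 1.32 to 0.28 and that of *Nupr1* from 1.03 to 0.10, and *Asns* was at 0.92 (adjusted p = 0.384). Tubule injury markers differed in the same mice. *Lcn2* was 25.7, 9.79, 7.72 and 1.28 CPM with NR against 0.514–1.11 CPM on vehicle, and *Havcr1*, which encodes KIM-1, was 5.10, 21.7, 11.9 and 3.12 CPM against 0.904–3.08 CPM. Of 8 injured tubule markers 4 rose, with a summed level of 872–2040 CPM against 663–824 CPM, and 7 of 8 endothelial and 4 of 9 fibroblast markers rose, the latter with a summed level of 160–235 CPM against 121–140 CPM. Of 12 proximal tubule markers only 2 were called lower. The unweighted sum of the 12 was 14500, 28400, 15300 and 24400 CPM with NR against 32700–33700 CPM on vehicle, without overlap. This sum also differed by sex, at 16000–19700 CPM in vehicle-treated female controls, and a few highly expressed markers can dominate it. The part of these markers in the levels of the members was not tested.

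In female controls no such spread was seen. *Asns* was 3.25–4.98 CPM with NR and 2.92–5.33 CPM on vehicle, *Phgdh* 8.88–13.3 and 8.70–11.6 CPM, and *Nupr1* 3.68–5.81 and 3.42–5.92 CPM. The log2FC of the 9 members other than *Psat1* ran from −0.21 for *Ddit3* to 0.54 for *Trib3*, each not called. Of the ATF4 targets, *Gpt2* fell in both sexes of controls (log2FC −0.48 in males, −0.45 in females), and *Slc3a2* (0.51) and *Atf3* (3.12) rose in males. These 3 calls in males fell to 0 without the 2 mice of low *Col4a3* and to 1 with a replicate block, and the female call was lost with all 32 mice in 1 fit. Of the serine, glycine and folate list, 0 of 23 were called by edgeR in either sex and 3 in males and 2 in females by DESeq2, with 4 at an unadjusted p under 0.05 in each, against 23.1% of all genes in males and 22.8% in females.

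The third comparison asked what NR did in Alport mice. No member was called by edgeR in either sex. In males 0% of 15500 genes were called, with 785 at an unadjusted p under 0.05 and 62 called by DESeq2, and in females 0.477% of 15712 genes were called. Of the members, 3 in males and 4 in females had an unadjusted p under 0.05, beside 5.06% of all genes in males and 16.7% in females, and DESeq2 called none in males and *Psat1* in females.

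*Psat1* was 34.2, 27.7, 36.6 and 30.1 CPM in vehicle-treated female Alport mice and 49.7, 57.3, 37.7 and 58.0 CPM with NR. The 4 NR-treated mice lay above all 4 vehicle-treated mice. The log2FC was 0.67 ± 0.14 (edgeR adjusted p = 0.089), and it passed with DESeq2 (0.00227) and without NR replicate 3 (0.0417), with 0.00227 to 0.235 over 13 alternatives. In males *Psat1* was 30.1, 39.9, 33.1 and 56.8 CPM on vehicle and 55.6, 76.6, 106 and 57.9 CPM with NR, where 1 vehicle-treated mouse reached into the NR-treated group. The log2FC was 0.88 ± 0.26 (adjusted p = 0.814) and passed only in 1 fit of all 32 mice (0.0167).

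Side by side, the log2FC of *Psat1* with NR was 0.62 and 0.83 in male and female controls and 0.88 and 0.67 in male and female Alport mice. The NR-genotype interaction of *Psat1* was 0.24 ± 0.31 in males (edgeR adjusted p = 0.856) and −0.18 ± 0.16 in females (adjusted p = 0.756). *Psat1* was highest in NR-treated male Alport mice, at 74.0 ± 23.2 CPM (SD, n = 4), then in NR-treated female Alport mice, at 50.7 ± 9.42 CPM. Neighboring groups in the order of *Psat1* means overlapped, with the exception of the step from vehicle-treated female Alport mice (32.2 ± 3.98 CPM) down to vehicle-treated male controls (22.6 ± 2.40 CPM), the sixth and seventh groups.

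Other members had few clear steps in the order of group means. *Shmt2* fell from 279 ± 10.5 CPM in vehicle-treated male controls to 105 ± 20.8 CPM in vehicle-treated female Alport mice, and only the last step, from NR-treated female Alport mice at 143 ± 6.91 CPM, was free of overlap. For *Asns* the only such step lay between NR-treated female Alport mice (6.77 ± 1.24 CPM) and NR-treated female controls (3.98 ± 0.743 CPM). For *Nupr1* it lay between NR-treated male Alport mice (35.3 ± 7.77 CPM) and the libraries labelled NR-treated male control (7.30 ± 3.98 CPM), which divides all Alport from all control groups. The other 6 members had no step without overlap. The groups were ordered by these same means, and the share of all genes with such a step was not determined.

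Of the members that had changed with genotype, none was called by edgeR between NR-treated and vehicle-treated Alport mice in the fits of 8 mice. The alternatives that called *Psat1* are given above. *Shmt2* was 84.1–132 CPM in vehicle-treated and 136–149 CPM in NR-treated female Alport mice, which did not overlap (log2FC 0.45 ± 0.14, edgeR adjusted p = 0.176), and it was still below the 191–227 CPM of vehicle-treated female controls. In males *Shmt2* with NR was 114, 242, 113 and 258 CPM, so 2 mice lay near the lowest vehicle-treated mouse and 2 above the highest. The unweighted sums of proximal tubule markers in those 4 mice were 6380, 17500, 3980 and 20400 CPM in the same order, low and high in the same mice, and their part was not tested. *Nupr1* was 45.2, 30.7, 37.4 and 27.7 CPM in NR-treated males (log2FC −0.39 ± 0.17, adjusted p = 0.939) and 51.2, 51.1, 27.4 and 24.0 CPM in NR-treated females (log2FC −0.15 ± 0.24, adjusted p = 0.777). *Phgdh* in females was 15.1, 16.2, 14.5 and 8.89 CPM with NR against 14.6–22.7 CPM on vehicle (log2FC −0.49 ± 0.20, adjusted p = 0.256).

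Whether NR acted differently in Alport and control mice was tested as an interaction in the 16 mice of each sex. No gene was called by edgeR (0% of 15800 in males and 0% of 16064 in females), with 8.85% and 9.47% of genes at an unadjusted p under 0.05 and 20 and 30 called by DESeq2. Of the members, 1 in males and 2 in females had an unadjusted p under 0.05. In males it was *Nupr1* (interaction −1.44 ± 0.43, adjusted p = 0.42), which was −0.50 without the 2 NR-treated male controls with low *Col4a3*. In females they were *Shmt2* (0.38 ± 0.15, adjusted p = 0.462) and *Phgdh* (−0.59 ± 0.26, adjusted p = 0.503).

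NR-treated male Alport replicate 3 had the highest level of all 32 mice for 7 of the 10 members (*Psat1*, *Phgdh*, *Mthfd2*, *Asns*, *Atf4*, *Ddit3* and *Trib3*). It was picked as the mouse that was highest for the most members. Its high levels and ratios in the members therefore follow from that choice and are a description only. *Trib3* was 19.4 CPM (525 counts) in this mouse and 1.67–3.0 CPM in the other 3 of its group. *Asns* was 36.8 CPM against 6.79–9.87 CPM, and *Phgdh* was 67.6 CPM against 9.67–17.4 CPM. The stress factors that had not been called between genotypes stood out too, with *Ddit3* at 37.2 CPM against 9.03–12.2 CPM and *Atf4* at 205 CPM against 80.6–88.1 CPM. *Mthfd2* was 22.2 CPM against 6.93–7.68 CPM, and *Psat1* was 106 CPM against 55.6–76.6 CPM.

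Not all members took part. *Psph* was 30.5 CPM, second of the 32 mice, *Nupr1* was 37.4 CPM and inside the range of its group, and *Shmt2* was 113 CPM, just below the 114–258 CPM of the other 3 mice. The median ratio of this mouse to the median of the other 3 was 2.71 over the members, 1.65 over 32 ATF4 targets, 0.90 over the 16 endoplasmic reticulum chaperone and unfolded protein response genes and 1.0 over 14045 genes with a mean of at least 1 CPM. Single chaperone and unfolded protein response genes ran from 0.729 for *Herpud1* to 1.41 for *Dnajb9*, and this mouse was second of 32 for *Hspa5*. The median ratio over the 11 genes for eIF2 kinases and factors was 0.96. This mouse was the highest of 32 for 19 of the ATF4 targets, for 2 of those 11 genes and for 0 of the 16 chaperone genes, and for 9.60% of 14054 genes. NR-treated male Alport replicate 1 was highest for more genes (11.1%) and for none of the members.

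Among the ATF4 targets, those highest in ratio were chosen here after their values were seen. *Slc7a11*, the cystine importer, was 30.4 CPM in this mouse against 2.49–3.88 CPM in the other 3. *Chac1*, which degrades glutathione, was 9.63 CPM against 0.951–1.45 CPM, and the stress hormone gene *Gdf15* was 98.7 CPM against 10.5–29.8 CPM. In the serine, glycine and folate list, the mitochondrial enzymes *Aldh1l2* (14.1 against 3.39–3.82 CPM) and *Mthfd1l* (22.1 against 7.02–11.2 CPM) were among those highest of 32 mice, and the median ratio over the list was 0.74. The same mouse had the lowest unweighted sum of proximal tubule markers of all 32 mice, at 3980 CPM against 6380–20400 CPM in the other 3 of its group. Its injured tubule markers, at 4190 CPM, lay inside the group's range of 3180–10800 CPM. Its total count was 23738769, within the range of the other libraries. The part of these cell type markers in its levels was not tested.

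**Figure D4:**
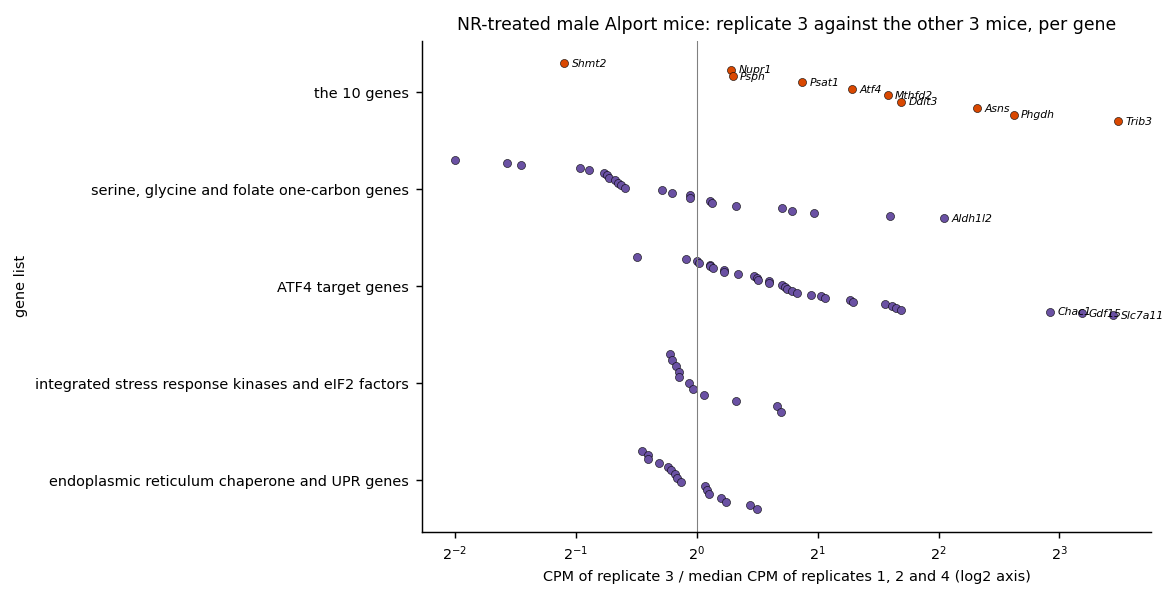
Ratio of the CPM in NR-treated male Alport replicate 3 to the median of replicates 1, 2 and 4 (log2 axis) for the 10 genes (orange) and 4 pathway lists (purple); each point is a gene and the vertical line marks equal levels. *Trib3* lies at 11.2, *Phgdh* at 6.15 and *Asns* at 5.0, while the chaperone genes stay near the line.

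The NR comparison in male Alport mice rests on this mouse for the direction of several members. Without it, the log2FC of *Trib3* went from 1.29 ± 0.81 to −0.31, of *Asns* from 0.78 ± 0.57 to −0.15, of *Phgdh* from 0.57 ± 0.57 to −0.50, of *Ddit3* from 0.58 ± 0.42 to −0.10 and of *Mthfd2* from 0.51 ± 0.40 to −0.09. *Atf4* went from 0.49 ± 0.30 to 0.04. *Psat1* kept its sign, at 0.66. None of these values was called with or without the mouse, and the adjusted p without it was 0.992 or 0.993 for every member.

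The members' deviations from their group means were compared across mice. Deviations of log2 CPM from the group mean were correlated over 32 mice for the 45 pairs of members, with a median r of 0.32 (0.17 without NR-treated male Alport replicate 3) and a range of −0.62 to 0.91. In a permutation test within groups, adjusted over the 45 pairs, *Mthfd2* with *Asns* was the only pair to pass in both measures (r = 0.91, adjusted p = 0.0072, and rho = 0.79, adjusted p = 0.0108). Its r was 0.83 without the 2 mice farthest from the median and 0.87 without replicate 3. *Phgdh* with *Nupr1* passed in rank only (rho = 0.67, adjusted p = 0.0108, with r = 0.58 and adjusted p = 0.0554), as did *Psph* with *Ddit3* (rho = 0.62, adjusted p = 0.0118, with r = 0.56 and adjusted p = 0.0554). Mice of a group share diet, genotype and sex but also vary in cell type marker levels and may differ in cell composition, which was not separated here.

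The genes whose deviations were most like those of a member, over 32 mice and among 14053 other genes, are given as a description. For *Asns* these were *Mthfd2* (r = 0.91), *Atf5* (0.89) and *Tnfrsf12a* (0.86), and for *Mthfd2* they were *Asns*, *Atf5* (0.87) and *Eif4ebp1* (0.87). For *Phgdh* they were *Eif4ebp1* (0.90), *Myc* (0.88) and *Pck2* (0.88), and each stayed at or above 0.819 without replicate 3. For *Trib3* they were *Fosl1* (0.89), *Chac1* (0.83) and *Maoa* (0.81), which were 0.75, 0.67 and 0.56 without replicate 3. For *Shmt2* they were *Ivd* (0.95), the phosphate transporter *Slc17a1* (0.94) and *Dlst* (0.94). For *Psat1* they were *Pax8* (0.75), *Wasl* (0.74) and *Riok3* (0.74), and for *Psph* they were *Gtf2h1* (0.76), *Msl3* (0.74) and *Ssr3* (0.73). For *Nupr1* they were *Apoe* (0.80), *Arhgap23* (0.80) and *Stom* (0.79). For *Atf4* they were *Gnl3* (0.85), *Fosl1* (0.84) and *Ltv1* (0.84), and for *Ddit3* they were *E2f4* (0.88), *Ywhag* (0.85) and *Fosl1* (0.82), and for *Fosl1* the value without replicate 3 was 0.63 with *Atf4* and 0.57 with *Ddit3*.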

How the data were processed

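Poly(A) libraries of kidney cortex RNA were sequenced by a service provider. According to the methods, the authors processed the reads with BioJupies and deposited a table of raw counts per gene symbol and mouse; the aligner version and strand setting are not given in the sources used here, and mm10 is named in the submitters' processing notes. A second deposited table, of log-scale values for the same mice, was not used. Groups came from the sample labels. The members and gene lists were chosen with earlier results of these data known. Tests were run with edgeR 4.0.16 under R 4.3.3 (filterByExpr with a minimum count of 10, TMM, quasi-likelihood F test), 1 fit of 8 mice per sex and comparison, 16 mice for interactions, and Benjamini-Hochberg adjustment. The fold limit of 2 applied to sex comparisons. SE is the log2FC divided by the square root of F. Pairs of members used 100000 permutations within groups. Alternatives were DESeq2 1.42.0, RLE size factors, no low-count filter, 1 fit of all 32 mice, a replicate block, no fold limit and leaving out each mouse. The test was checked on simulated counts. Members were all named; of pathway lists, up to 3 called genes per direction with the smallest adjusted p; for likeness, 3 genes with the highest r. Some genes that this rule names are not reported here. With 4 mice per group, the p-values set group differences against the spread between these mice, which was estimated with information shared across genes. No 2 mice of a group were the same library: over 48 pairs, the lowest chi-square divided by its degrees of freedom was 7.56. Sequences are from RefSeq tables of GRCm38.p6, which matched all 10 members, and overlapping exons from GENCODE vM21.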

Additional observations from a re-analysis of the deposited data

Results flagged for a closer look

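In 80 tests (10 genes in 8 groups of 4 mice), 9 values stood apart from their group, where chance flags about 5%. Of these, 6 belong to NR-treated male Alport replicate 3: *Phgdh* at 67.6 CPM, *Mthfd2* at 22.2 CPM, *Asns* at 36.8 CPM, *Atf4* at 205 CPM, *Ddit3* at 37.2 CPM and *Trib3* at 19.4 CPM, each above the other 3 mice of the group. In vehicle-treated male Alport mice, replicate 2 stood above the others for *Asns* (15.4 CPM against 5.84–7.30 CPM) and for *Trib3* (4.88 CPM against 1.71–2.10 CPM). In vehicle-treated female Alport mice, *Nupr1* in replicate 2 stood below the others (34.3 CPM against 44.9–46.8 CPM). The genes of a mouse are not independent of each other, so the 6 values of replicate 3 are not 6 separate observations. The cause was not tested.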

How the results depend on the processing

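Of 1660 alternative values of the log2FC of members, 1578 kept direction and side of the threshold, 11 lost and 19 gained a call, and 52 changed sign, none of them called in either fit. Counts of called genes and members moved as follows. In Alport against control females, all 32 mice in 1 fit called 3 members in place of 6. With NR in Alport females (75 genes, 0 members), the counts were 728 genes and 1 member with DESeq2, 116 genes without the filter, 253 genes with all 32 mice and 9–166 genes and 0–1 members without 1 mouse. With NR in Alport males (0 genes), they were 62 with DESeq2, 88 genes and 1 member with all 32 mice and 0–380 without 1 mouse, where 380 is without NR replicate 1. With NR in control females (924 genes, 1 member), they were 1493 with DESeq2, 18 genes and 0 members with all 32 mice, 371 with a replicate block and 395–809 without 1 mouse. With NR in control males (666 genes, 1 member), they were 1654 genes and 4 members with DESeq2, 309 genes and 0 members with a replicate block, 96 genes without the 2 mice of low *Col4a3* (chosen after seeing the data) and 74–1886 genes and 0–5 members without 1 mouse, with the most without NR replicate 4. The NR-genotype interaction gave 0 genes in either sex. In females it gave 30 with DESeq2, 3 without the filter and 0–45 without 1 mouse, and in males 20, 1 with all 32 mice and 0–782 without 1 mouse, where 782 is without NR-treated Alport replicate 1. Females against males (701 genes, 0 members) gave 4629 genes and 2 members with no fold limit and 0–1 members without 1 mouse. The sex-genotype interaction (46 genes) gave 115 with DESeq2, 4 with all 32 mice, 86 with no fold limit and 16–59 without 1 mouse. Single mice that moved the gene count by over 1.5 times were, with NR in Alport females, vehicle replicates 1, 3 and 4 and NR replicates 1, 3 and 4, in Alport males NR replicates 1 and 3, in control females vehicle replicates 2, 3 and 4 and NR replicates 1, 3 and 4, and in control males all but NR replicate 2. They also were, in the female interaction, Alport vehicle replicates 2 and 3 and Alport NR replicates 1, 3 and 4, in the male interaction Alport NR replicate 1, and in the sex-genotype interaction male control replicates 1, 2 and 4, male Alport replicates 1, 2 and 3, female control replicates 3 and 4 and female Alport replicates 1 and 4. The causes were not tested.

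The sign changes are given as ranges of the log2FC without 1 mouse. For Alport against control females the range was *Atf4* −0.058 to 0.043. For Alport against control males the range was *Ddit3* −0.086 to 0.12. For NR in Alport females the ranges were *Mthfd2* −0.094 to 0.066, *Ddit3* −0.050 to 0.13 and *Nupr1* −0.31 to 0.020. For NR in Alport males the ranges were *Phgdh* −0.50 to 0.84, *Mthfd2* −0.085 to 0.73, *Asns* −0.15 to 1.19, *Ddit3* −0.10 to 0.80, *Trib3* −0.31 to 1.77 and *Shmt2* −0.0016 to 0.38. For NR in control females the ranges were *Nupr1* −0.11 to 0.15, *Mthfd2* −0.065 to 0.12, *Asns* −0.097 to 0.22 and *Phgdh* −0.036 to 0.16. For NR in control males the ranges were *Psph* −0.070 to 0.085 and *Shmt2* −0.24 to 0.073. For the female NR-genotype interaction the ranges were *Mthfd2* −0.16 to 0.029, *Psph* −0.13 to 0.018 and *Atf4* −0.0034 to 0.14. For the male NR-genotype interaction the ranges were *Asns* −1.41 to 0.024, *Atf4* −0.090 to 0.51 and *Trib3* −1.31 to 0.76. For females against males the ranges were *Psat1* −0.065 to 0.053 and *Atf4* −0.078 to 0.024. With a replicate block, the log2FC became 0.003 for *Atf4* in Alport against control females, −0.0003 for *Psph* with NR in control males and −0.19 for *Trib3* in the male NR-genotype interaction. With all 32 mice, *Ddit3* in Alport against control males became −0.061. Without the 2 mice of low *Col4a3*, *Shmt2* with NR in control males became 0.25, and in the male interaction *Phgdh* became 0.28 and *Shmt2* −0.056.

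Replicate numbers were not taken to pair the mice: in 24 same-numbered pairs, deviations from the group means correlated at −0.24 to 0.38, with 7 over 0.1. The replicate block changed no call of a member other than that of *Psat1* in male controls (log2FC 0.61, adjusted p = 0.0686). With 4 mice per group, and with groups as uneven as the NR-treated males, a missed threshold does not show that values did not differ. The lowest count of a member was 14, for *Trib3*.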
